A study of Mus musculus with 4 samples.

Results

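Collagens, the main fibre and mesh proteins of the extracellular matrix, are encoded by a large gene family, and the mRNA of its members was measured by RNA-seq in embryonic mouse cortex. The members were the rows of the deposited expression table whose symbol has the form of a collagen chain (Col, a type number, a and a chain number), which gave 44 genes of 40630 in the table. Of these, 11 encode fibrillar chains, 8 encode chains of basement membranes (type IV, XV and XVIII) and 25 belong to other classes. Expression was given as TPM (transcript abundance scaled to the same total in every library and corrected for gene length), so levels of different genes can be compared.

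All 4 libraries came from the cortex of C57BL/6 embryos at stage E13.5, when the neocortex is producing its first layers of neurons. The 2 cKO-labelled libraries (replicates 4 and 5) carried Upf2fl/fl with Emx1-Cre, and the 2 control libraries (replicates 8 and 9) carried Upf2fl/+ without Cre, so controls also held a floxed allele while Cre and the second floxed allele differed together. Upf2 encodes an adaptor of nonsense-mediated mRNA decay, and Emx1-Cre is expressed in progenitors of the dorsal telencephalon, not in all cells of the dissected tissue. Whether each library holds a separate embryo is not stated, so the p-values measure the spread between libraries, which may be technical.

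Collagens are extracellular proteins whose chains wind around each other in a helix built of Gly-X-Y repeats, in which glycine stands at the start of every repeat. Fibrillar collagens (types I, II, III, V and XI) form the fibres of connective tissue, which in the embryonic head includes the meninges, while type IV collagen forms the mesh of basement membranes under the pia and around vessels. Radial glia anchor their endfeet on the pial basement membrane, and collagen III is a known ligand of the receptor Adgrg1 (GPR56) there. Fibril-associated collagens decorate fibres, type VI makes beaded filaments beside cells, and several chains are membrane proteins.

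The coding sequences show the repeat that all members share, which runs unbroken for longer in fibrillar chains than in the other classes. In the 60-base stretches printed here, each glycine codon (GGN) is in capitals. Those of Col3a1, Col1a1 and Col22a1 start at the middle of the longest uninterrupted Gly-X-Y run of the GENCODE M21 coding sequence (GRCm38, sense strand), at codons 680, 675 and 1275 counted from the start codon. That of Col4a1 starts at codon 154, with the last 3 repeats of its longest run and the interruption that follows, and it shows why type IV chains are called interrupted.
Col3a1: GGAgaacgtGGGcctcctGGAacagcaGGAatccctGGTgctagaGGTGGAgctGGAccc
Col1a1: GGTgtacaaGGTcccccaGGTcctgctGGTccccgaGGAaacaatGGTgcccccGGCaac
Col22a1: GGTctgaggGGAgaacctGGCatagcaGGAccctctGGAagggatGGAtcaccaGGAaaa
Col4a1: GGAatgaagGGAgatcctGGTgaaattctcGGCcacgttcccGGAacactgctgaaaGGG

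The longest run had 344 repeats in Col3a1 and 338 in Col1a1. In Col4a1 the longest of 22 runs had 40 repeats (runs of at least 5 repeats were counted), and in Col22a1 it had 113. Over the 11 fibrillar genes the median longest run was 338 repeats (range 216 to 344), against 41 (30 to 66) in the 8 basement membrane genes and 52 (23 to 113) in the 25 others. Run length is a property of the sequence and was not used to choose or test any gene.

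Summed over all 44 genes, collagen mRNA was 314 and 307 TPM in cKO-labelled libraries 4 and 5, against 1048 and 577 TPM in control libraries 8 and 9. Both cKO-labelled libraries lay below both controls, and the control mean was 2.62 times the cKO-labelled mean. The fibrillar sum was 73.9 and 96.7 TPM in cKO-labelled libraries, against 457 and 238 TPM in the controls, a ratio of the control to the cKO-labelled mean of 4.08. The basement membrane sum was 178 and 153 TPM in cKO-labelled libraries, against 413 and 248 TPM in the controls, a ratio of 1.99. The sums divide into shares of all collagen mRNA. Fibrillar chains held 23.6% and 31.5% of it in cKO-labelled libraries, against 43.6% and 41.3% in controls. Basement membrane chains held 56.8% and 49.8% in cKO-labelled libraries, against 39.4% and 43.0% in controls. With 2 libraries in each group the smallest p of an exact permutation test is 0.33, so these sums are given as values without a test.

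**Figure D1:**
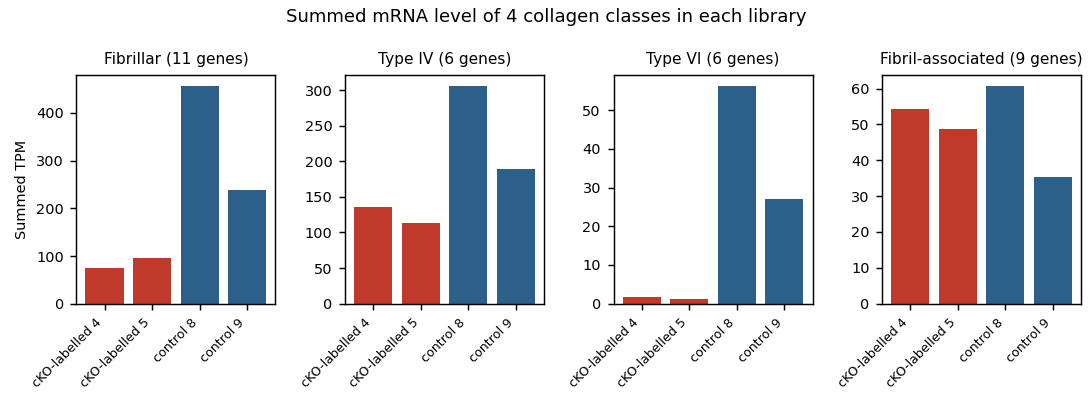
Summed TPM (vertical axis, each panel with its own scale from 0) of 4 collagen classes in the 2 cKO-labelled (red) and 2 control (blue) libraries. The fibrillar, type IV and type VI sums of both cKO-labelled libraries lie below both controls, and those of fibril-associated chains lie between the controls, at 54.5 and 48.7 TPM against 60.8 and 35.5 TPM.

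Genes with a mean of at least 1 TPM over the 4 libraries were tested across the whole table with limma on log2(TPM + 1), cKO-labelled minus control, and called at an adjusted p under 0.05. Of the 27 collagen genes tested, 14 fell, 1 rose (Col22a1) and 12 did not pass, and 25 of 27 had a negative log2 fold change. So did 8888 of the 14959 tested genes with a known GC content. Among all 15107 tested genes, 5.24% were called lower and 2.90% higher. Both cKO-labelled libraries lay below both controls for 22 of the 27, against 34.1% of all tested genes, and above both for 1 of the 27, against 23.5%. The median log2 fold change was -1.24 over the 27 collagens and -0.16 over all tested genes. Among the 27, 7 averaged at least 1 TPM in the controls and under 1 TPM in cKO-labelled libraries, so these 7 passed the filter only through their control level. They were Col1a1, Col1a2, Col6a1, Col6a2, Col6a3, Col8a2 and Col13a1, and all 7 are among the 14 lower calls.

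In a fit with 1 library left out, the spread rests on the pair that remains, and the lone library of the other group is assumed to vary like that pair. These fits called 1.05% of all tested genes lower without cKO-labelled library 4, 1.50% without library 5, 30.1% without control 8 and 3.30% without control 9. The 8 lower collagen calls made in each of the 4 fits were Col1a1, Col1a2, Col3a1, Col6a1, Col6a2, Col6a3, Col8a2 and Col23a1. Of the other 6, Col5a1, Col5a2, Col4a5 and Col16a1 were not called without cKO-labelled library 4 and also without 5, Col26a1 without 4 and Col13a1 without 5, while all 6 stayed negative in these fits. With no filter on low TPM the calls were Col1a1, Col1a2, Col3a1, Col6a1, Col6a3 and Col13a1, so that 3 of the 8 did not pass there (limma adjusted p = 0.0904 for Col23a1, 0.0571 for Col6a2 and 0.0662 for Col8a2). Of the 8, only Col3a1 and Col23a1 averaged at least 1 TPM in cKO-labelled libraries. Standard errors in the fit of all libraries come from a spread pooled over genes of like level, not from a gene's own replicates. Depth was 33537843 and 36453920 reads in cKO-labelled libraries, against 41680052 and 38274835 in controls, as worked out from the TPM values. In bulk tissue, fewer cells of a type and less RNA per cell cannot be told apart.

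**Figure D2:**
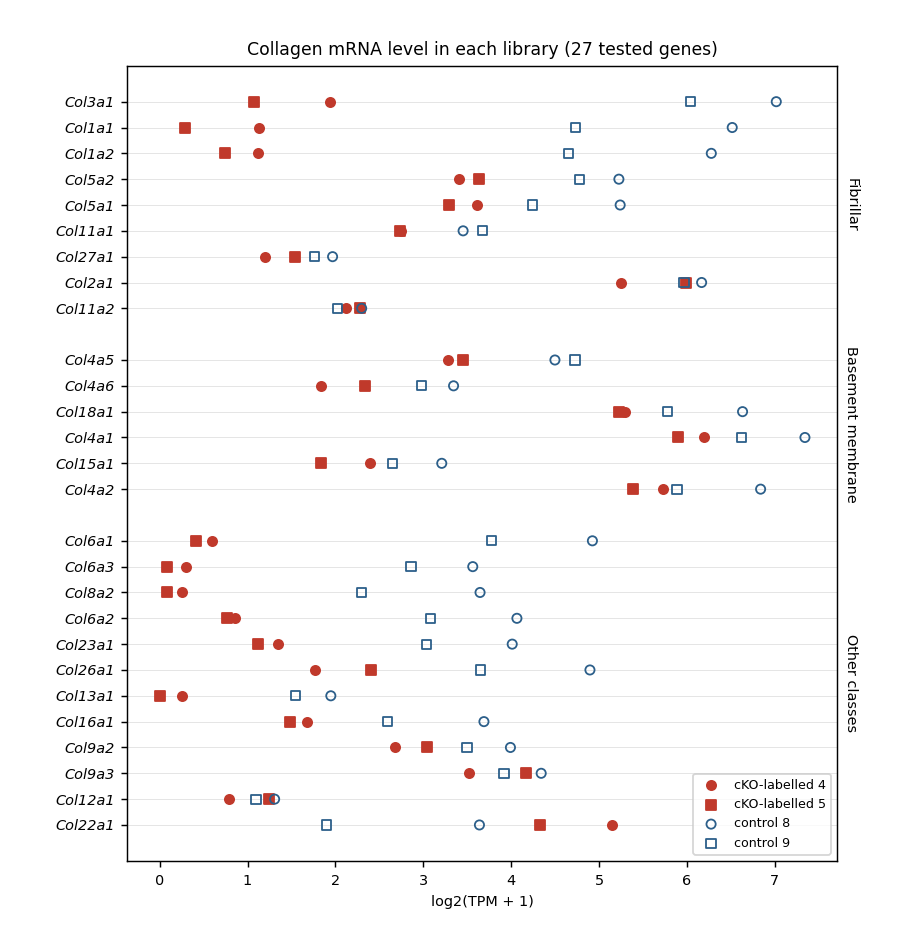
Level of each of the 27 tested collagen genes, as log2(TPM + 1) on the horizontal axis, in cKO-labelled libraries (filled red) and controls (open blue), by class and ordered within it by fold change. Col3a1, Col1a1 and Col1a2 show the widest gap between the groups among fibrillar genes, while Col2a1 and Col11a2 overlap and Col22a1 is the gene whose cKO-labelled libraries lie above both controls.

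Among the 27 tested genes, the chains of the main connective tissue fibres (types I and III) had the most negative fold changes on the log2(TPM + 1) scale. With limma-voom on the recovered reads the order differed, and Col6a3 (-6.06), Col8a2 (-5.78) and Col13a1 (-5.70) lay below Col3a1 (-5.67) and Col1a2 (-5.57). Col3a1 (ENSMUSG00000026043.18, chromosome 1, 45311538 to 45349706 in GRCm38), the chain of type III collagen, had 2.83 and 1.10 TPM in cKO-labelled libraries, against 128 and 65.0 TPM in the controls. That is 283 and 119 reads in cKO-labelled libraries, against 16100 and 7068 in controls. All cKO-labelled values were far below all control values, although the controls themselves differed, and the group means were 1.96 ± 1.22 and 96.7 ± 44.9 TPM (SD, n = 2 each). The log2 fold change was -5.03 ± 0.38 (SE, limma adjusted p = 6.9e-36), and the linear ratio of control to cKO-labelled means was 49.3.

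Col1a1 and Col1a2 encode the 2 kinds of chain of type I collagen, the main protein of bone, tendon and dermis. Col1a1 (ENSMUSG00000001506.10, chromosome 11, 94936224 to 94953042) had 1.20 and 0.22 TPM in cKO-labelled libraries, against 90.5 and 25.5 TPM in the controls. Its log2 fold change was -4.91 ± 0.39 (limma adjusted p = 5.12e-33). Cells make type I collagen from both chains together, and Col1a2 had 1.17 and 0.68 TPM in cKO-labelled libraries, against 76.6 and 24.2 TPM in the controls. Its log2 fold change was -4.53 ± 0.39 (limma adjusted p = 4.02e-28). The ratio of Col1a1 to Col1a2 was 1.02 and 0.33 in cKO-labelled libraries and 1.18 and 1.05 in controls, where the 0.33 rests on 16 reads of Col1a1. Control 8 stood above control 9 in both type I chains.

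Col5a1 and Col5a2 encode type V chains, which start and limit the thickness of type I fibres. Col5a1 had 11.2 and 8.81 TPM in cKO-labelled libraries, against 36.8 and 18.0 TPM in the controls (log2 fold change -1.29 ± 0.38, limma adjusted p = 0.0137). Col5a2 had 9.62 and 11.4 TPM in cKO-labelled libraries, against 36.4 and 26.3 TPM in the controls (log2 fold change -1.48 ± 0.38, limma adjusted p = 0.00275). The groups did not overlap in either gene. In level, Col5a1 and Col5a2 each stood above Col3a1 in both cKO-labelled libraries and below it in both controls. Without cKO-labelled library 4 the log2 fold change was -1.45 for Col5a1 (limma adjusted p = 0.991) and -1.37 for Col5a2 (adjusted p = 1.00). Without library 5 it was -1.13 for Col5a1 (adjusted p = 0.845) and -1.59 for Col5a2 (adjusted p = 0.492).

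The cartilage-type fibrillar chains did not pass the test. Col2a1, the type II chain, which is the main collagen of cartilage and is also made by early neuroepithelium, had 37.0 and 62.7 TPM in cKO-labelled libraries, against 70.8 and 61.5 TPM in the controls. The groups overlapped, since library 5 lay between the controls, and the log2 fold change was -0.45 ± 0.35 (limma adjusted p = 0.434). Col11a1, which joins type II fibres, had 5.73 and 5.65 TPM in cKO-labelled libraries, against 9.95 and 11.7 TPM in the controls (log2 fold change -0.82 ± 0.39, limma adjusted p = 0.184). The groups were apart for Col11a1, but the difference did not pass. In the fit without control 8, which called 30.1% of all tested genes lower, its adjusted p was 0.0288. Col11a2, its partner chain, had 3.35 and 3.84 TPM in cKO-labelled libraries, against 3.92 and 3.07 TPM in the controls, and its groups overlapped. Col27a1, a minor fibrillar chain of cartilage, had 1.29 and 1.91 TPM in cKO-labelled libraries, against 2.91 and 2.39 TPM in the controls (limma adjusted p = 0.38). The 8 cartilage markers other than Sox9 were low in all libraries, and together summed to 1.33 and 3.03 TPM in cKO-labelled libraries, against 5.26 and 3.97 TPM in the controls. The highest single value was 2.56 TPM in a cKO-labelled library and 2.30 TPM in a control. Sox9, which neural progenitors also express, had 89.0 and 96.4 TPM in cKO-labelled libraries, against 103 and 83.0 TPM in the controls.

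The promoters of the lower genes can be seen beside these values. RefSeq windows of 250 bases before the start site (GRCm38.p6) were found for 35 of the 44 members, and those of Col3a1 and Col8a2, which both kept their call in every fit with 1 library left out, are printed as a GC-poor and a GC-rich example. The motifs searched on both strands were a TATA box (TATAAA), the CCAAT box spelled as its name, the core of the GC box (GGGCGG) and a forkhead site (GTAAACA). Overlapping matches were counted, no motif contains another, and matches are in capitals. The Col3a1 window (chr1:45311288-45311537, plus strand) is 35.2% GC and holds 1 TATAAA, from -117 to -112 before the start. The Col8a2 window (chr4:126286544-126286793, plus strand) is 70.0% GC and holds 4 matches to the GC box core, of which 1 is on the plus strand and 3 are on the minus strand (printed as the reverse complement), the last pair overlapping.
Col3a1 promoter: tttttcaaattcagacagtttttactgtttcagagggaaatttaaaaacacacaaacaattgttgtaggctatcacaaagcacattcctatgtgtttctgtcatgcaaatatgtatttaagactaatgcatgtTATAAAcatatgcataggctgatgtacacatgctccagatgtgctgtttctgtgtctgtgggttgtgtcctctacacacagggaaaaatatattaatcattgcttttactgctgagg
Col8a2 promoter: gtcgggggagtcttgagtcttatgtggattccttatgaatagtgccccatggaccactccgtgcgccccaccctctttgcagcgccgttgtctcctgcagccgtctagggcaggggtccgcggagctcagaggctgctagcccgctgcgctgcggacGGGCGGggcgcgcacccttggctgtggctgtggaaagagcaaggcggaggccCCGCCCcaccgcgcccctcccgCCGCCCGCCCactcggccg

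The GC box core occurred in 60.0% of the 35 collagen windows and in 32.9% of all 27025 windows of the same length, and collagen windows had a higher median GC content (59.6% against 52.0%). The CCAAT box occurred in 34.3% of collagen windows and 34.5% of all windows. The TATA box letters occurred in 14.3% of collagen windows and 12.97% of all windows. The forkhead letters occurred in 2.86% of collagen windows and 3.09% of all windows. These are descriptions of the letters in a short window and say nothing of binding.

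Basement membrane collagens lay below the controls by smaller amounts than types I and III. All 8, with 2 of them under the filter, had both cKO-labelled libraries below both controls, as did 34.1% of all tested genes. Of the 6 tested, Col4a5 fell and 5 did not pass, with log2 fold changes from -1.24 to -0.81, against -5.03 to 0.04 among the 9 tested fibrillar genes. Col4a1 and Col4a2 encode the chains of the type IV mesh that every basement membrane holds. Col4a1 (ENSMUSG00000031502.11, chromosome 8, 11198423 to 11312826) had 72.4 and 58.6 TPM in cKO-labelled libraries, against 161 and 97.5 TPM in the controls. It was the most abundant collagen mRNA in cKO-labelled library 4 and in both controls, and came after Col2a1 in library 5. Its log2 fold change was -0.94 ± 0.34 (limma adjusted p = 0.0695), and it passed without control 9 (-1.30, adjusted p = 0.00428, with 3.30% of all tested genes lower) and after removal of a trend on GC content (-1.21, adjusted p = 0.00649, with 4.94% lower). In the fit without control 8, which called 30.1% of all tested genes lower, it was also under the threshold (adjusted p = 0.0282) at a smaller fold change of -0.58.

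Col4a2 is transcribed from the opposite strand, head to head with Col4a1. It had 51.8 and 40.9 TPM in cKO-labelled libraries, against 113 and 58.2 TPM in the controls (log2 fold change -0.81 ± 0.35, limma adjusted p = 0.135). The annotated first exons overlap by 22 bases (chr8:11312805-11312826, GRCm38.p6, plus strand). The strand setting of the counting is unknown, so reads in these bases could count for either gene. The overlap is printed because it marks the shared start of the pair, all in lower case.
Col4a1 and Col4a2 shared first bases: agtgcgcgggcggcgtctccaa

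The ratio of Col4a1 to Col4a2 was 1.40 and 1.43 in cKO-labelled libraries and 1.42 and 1.68 in controls, a range of 1.40 to 1.68 over all 4 libraries. The other head-to-head pairs are Col4a3 and Col4a4 (71 bases apart) and Col4a5 and Col4a6 (1308 bases apart, on chromosome X). Col4a5, a type IV chain known from kidney and skin, had 8.73 and 9.96 TPM in cKO-labelled libraries, against 21.6 and 25.5 TPM in the controls. Control 9 was the higher control here, unlike for Col4a1, and Col4a5 fell by 1.24 ± 0.38 on the log2 scale (limma adjusted p = 0.0207). It stood at -1.16 without cKO-labelled library 4 (adjusted p = 1.00) and at -1.33 without library 5 (adjusted p = 0.704). Col4a6 had 2.57 and 4.05 TPM in cKO-labelled libraries, against 9.16 and 6.88 TPM in the controls (log2 fold change -1.08 ± 0.38, limma adjusted p = 0.0567). It passed after GC removal (adjusted p = 0.0168), with limma-voom (adjusted p = 0.0301) and with moderation without an intensity trend (adjusted p = 0.0379). The ratio of Col4a5 to Col4a6 was 3.40 and 2.46 in cKO-labelled libraries and 2.36 and 3.70 in controls, which overlap. Col4a3 and Col4a4, known from the glomerulus, were under 1 TPM in every library.

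Col18a1 and Col15a1 encode multiplexins, which carry sugar chains and sit in basement membranes, and endostatin is a fragment of collagen XVIII. Col18a1 had 38.3 and 36.6 TPM in cKO-labelled libraries, against 98.2 and 54.1 TPM in the controls (log2 fold change -0.94 ± 0.35, limma adjusted p = 0.0723). It passed without control 9 (-1.37, adjusted p = 0.00264) and after GC removal (-1.35, adjusted p = 0.00243). Without control 8 it stood at -0.52 (adjusted p = 0.0368), in the fit that called 30.1% of all tested genes lower. Col15a1 had 4.23 and 2.58 TPM in cKO-labelled libraries, against 8.25 and 5.27 TPM in the controls (log2 fold change -0.81 ± 0.38, limma adjusted p = 0.173).

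All 3 tested type VI genes fell, and all 3 passed the filter only through their control level. The beaded filaments of this type are built from the products of Col6a1, Col6a2 and Col6a3, and the 6 type VI genes summed to 1.85 and 1.28 TPM in cKO-labelled libraries, against 56.3 and 27.2 TPM in the controls. Col6a1 had 0.52 and 0.33 TPM in cKO-labelled libraries, against 29.4 and 12.7 TPM in the controls (log2 fold change -3.84 ± 0.38, limma adjusted p = 1.73e-21). Col6a2, its neighbour on chromosome 10, had 0.81 and 0.70 TPM in cKO-labelled libraries, against 15.7 and 7.44 TPM in the controls (log2 fold change -2.76 ± 0.37, limma adjusted p = 1.62e-11). The ratio of Col6a1 to Col6a2 was 0.63 and 0.48 in cKO-labelled libraries and 1.87 and 1.71 in controls. The cKO-labelled ratios rest on 23 and 16 reads of Col6a1 and 69 and 64 reads of Col6a2. Col6a3, the longest of these chains, had 0.23 and 0.06 TPM in cKO-labelled libraries, against 10.8 and 6.26 TPM in the controls (log2 fold change -3.02 ± 0.35, limma adjusted p = 2.89e-15). Col6a4, Col6a5 and Col6a6 were under 1 TPM in every library.

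Of the short-chain and membrane collagens, 3 genes fell and were the only ones of their classes tested. Col8a2, a chain of the hexagonal networks of type VIII collagen under corneal endothelium, had 0.20 and 0.06 TPM in cKO-labelled libraries, against 11.5 and 3.92 TPM in the controls (log2 fold change -2.80 ± 0.35, limma adjusted p = 1.45e-13). Col23a1, a membrane collagen, had 1.54 and 1.17 TPM in cKO-labelled libraries, against 15.1 and 7.22 TPM in the controls (log2 fold change -2.29 ± 0.38, limma adjusted p = 1.1e-07). Col13a1, another membrane collagen, of cell adhesion sites, had 0.19 and 0 TPM in cKO-labelled libraries, against 2.86 and 1.92 TPM in the controls (log2 fold change -1.62 ± 0.32, limma adjusted p = 2.27e-05). The groups lay apart in each of these genes, and Col8a2 and Col13a1 passed the filter only through their control level. Without cKO-labelled library 5 Col13a1 stood at -1.49 (adjusted p = 0.0595).

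Col26a1, a chain known from testis and ovary, had 2.40 and 4.30 TPM in cKO-labelled libraries, against 28.8 and 11.6 TPM in the controls (log2 fold change -2.19 ± 0.39, limma adjusted p = 1.73e-06), and it stood at -1.87 without cKO-labelled library 4 (adjusted p = 0.369). Col16a1, a fibril-associated chain, had 2.21 and 1.79 TPM in cKO-labelled libraries, against 11.9 and 5.04 TPM in the controls (log2 fold change -1.56 ± 0.37, limma adjusted p = 0.00118). It stood at -1.66 without cKO-labelled library 4 (adjusted p = 0.355) and at -1.46 without library 5 (adjusted p = 0.445).

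Of the 4 other fibril-associated chains tested, 1 rose and 3 did not pass. Col22a1 (ENSMUSG00000079022.10, chromosome 15, 71795795 to 72034227), a chain known from the junctions of muscle and tendon, had 34.5 and 19.0 TPM in cKO-labelled libraries, against 11.5 and 2.74 TPM in the controls. Both cKO-labelled libraries lay above both controls, and library 4 and control 8 were each the higher of their group. The group means were 26.8 ± 10.9 and 7.10 ± 6.17 TPM (SD, n = 2 each), and the log2 fold change was 1.97 ± 0.39 (limma adjusted p = 2.41e-05). The call ended without cKO-labelled library 4 (1.56, adjusted p = 0.716), without control 9 (1.10, adjusted p = 0.0941) and with no filter on low TPM (adjusted p = 0.214), and it held without library 5 (adjusted p = 0.0455) and without control 8 (adjusted p = 0.00142). Markers of the ganglionic eminences, the ventral forebrain, differed between the same libraries. Of 9 tested, 9 were called higher, against 2.90% of all tested genes. In 8 of them both cKO-labelled libraries lay above both controls, against 23.5% of all tested genes. The markers summed to 636 and 296 TPM in cKO-labelled libraries, against 66.1 and 188 TPM in the controls. Their part in the Col22a1 value was not tested.

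Col9a2 and Col9a3 encode chains of type IX collagen, which coats type II fibres. Col9a2 had 5.39 and 7.26 TPM in cKO-labelled libraries, against 14.9 and 10.3 TPM in the controls (log2 fold change -0.88 ± 0.39, limma adjusted p = 0.146). Col9a3 had 10.5 and 17.0 TPM in cKO-labelled libraries, against 19.3 and 14.1 TPM in the controls, with overlapping groups (log2 fold change -0.28 ± 0.38, limma adjusted p = 0.667). Neither passed. Col12a1, which lies on type I fibres, had 0.73 and 1.36 TPM in cKO-labelled libraries, against 1.48 and 1.14 TPM in the controls (limma adjusted p = 0.751). Over all 9 genes of this class, the mean summed level in cKO-labelled libraries was 1.07 times that in controls, 1.45 times that of control 9 alone and 0.848 times that of control 8 alone. Col22a1 made up much of this sum, and the other 8 genes, a subset chosen after the values were seen, summed to 19.99 and 29.6 TPM in cKO-labelled libraries, against 49.3 and 32.7 TPM in the controls, a ratio of 0.605.

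**Figure D3:**
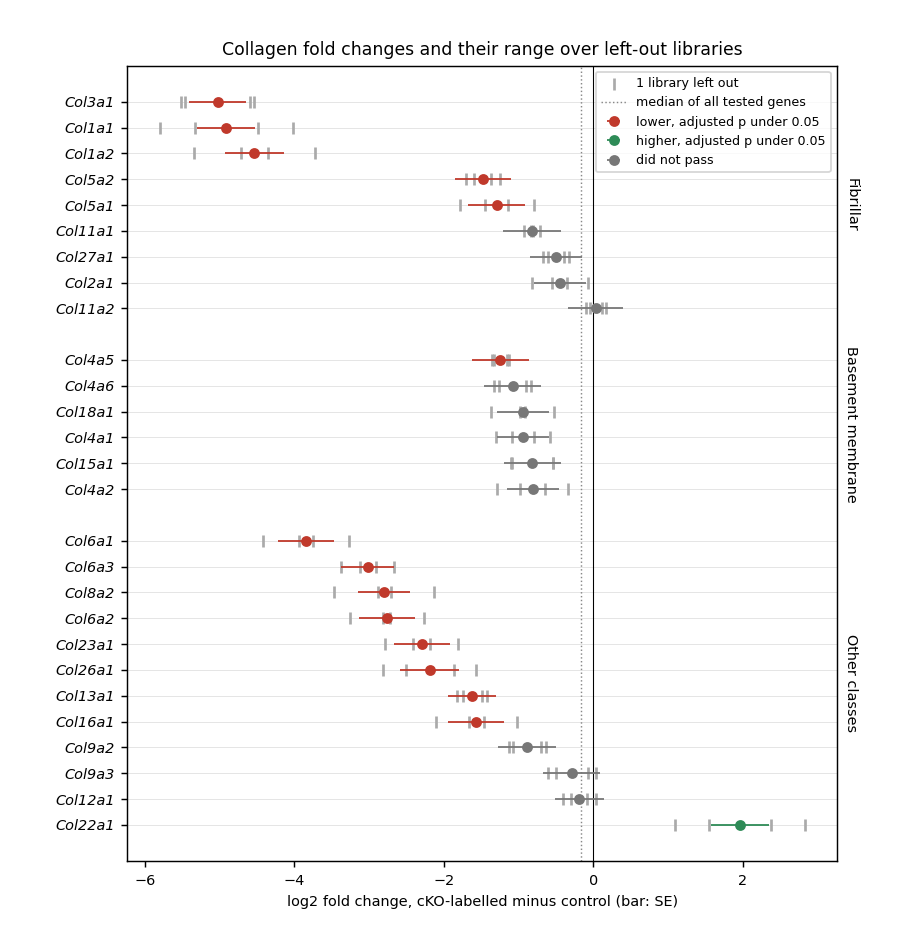
Log2 fold change, cKO-labelled minus control (points; bars are SE), of the 27 tested collagen genes, with grey ticks for the value when 1 library is left out and a dotted line at the median of all tested genes (-0.16). Type I, III and VI chains lie from -5.03 to -2.76, all basement membrane genes from -1.24 to -0.81, and Col22a1 alone at 1.97.

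The 17 genes below the filter (mean under 1 TPM) ranged from 0 to 1.65 TPM in single libraries. They were Col4a3, Col4a4, Col5a3, Col6a4, Col6a5, Col6a6, Col7a1, Col8a1, Col9a1, Col10a1, Col14a1, Col17a1, Col19a1, Col20a1, Col24a1, Col25a1 and Col28a1. In 6 of the 17 both cKO-labelled libraries lay below both controls, and in 1, Col19a1, they lay above both. Among all tested genes the shares were 34.1% and 23.5%, but those genes are above the filter, so the shares are not of genes at these levels. Just below the filter stood Col7a1, the anchoring fibril chain of skin, with 0.44 and 0.41 TPM in cKO-labelled libraries, against 1.65 and 1.09 TPM in the controls, and Col9a1, with 0.33 and 1.04 TPM in cKO-labelled libraries, against 0.93 and 0.68 TPM in the controls. Just above it stood Col12a1 and Col13a1.

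The controls differed from each other in most collagen genes. Control 8 was higher than control 9 for 25 of the 27 tested collagen genes, against 6299 of the 14959 tested genes with a known GC content. The median difference (9 minus 8) was -0.72 on the log2 scale, against 0.17 over those 14959 genes. Across all genes this difference followed GC content (Spearman rho = -0.76 over 14959 genes), and collagen mRNAs are GC-rich, with a median of 57.7% against 49.8%. Among the 27 collagens, all from the same libraries, rho was -0.09. The log2 fold change, cKO-labelled minus control, also followed GC content, with a Spearman rho of 0.54 over 14959 genes and 0.18 over the 27 collagens. Removing the GC trend, after which 4.94% of all tested genes were lower, left all 14 lower calls in place and added 6: Col4a1, Col4a2, Col4a6, Col15a1, Col18a1 and Col9a2.

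In the marker lists of the meninges, choroid plexus and surface epithelium, most tested members were called lower along with the collagens. Only 3 of the 8 surface epithelium markers were tested, so that list says little of this cell type. Of 14 tested meningeal markers, 12 fell, against 5.24% of all tested genes called lower. But 11 of the 14 averaged under 1 TPM in cKO-labelled libraries, so they passed the filter only through their control level. Lum, a proteoglycan of fibroblasts, had 0.24 and 0.04 TPM in cKO-labelled libraries, against 55.5 and 60.3 TPM in the controls. Cldn11 had 0.89 and 0.39 TPM in cKO-labelled libraries, against 63.5 and 40.6 TPM in the controls. Crabp2 had 109 and 111 TPM in cKO-labelled libraries, against 139 and 124 TPM in the controls, and did not pass. All 16 markers summed to 118 and 122 TPM in cKO-labelled libraries, against 408 and 320 TPM in the controls. The 15 markers without Crabp2 summed to 9.09 and 11.2 TPM in cKO-labelled libraries, against 269 and 195 TPM in the controls. That subset was chosen after the values were seen. None of the list of 16 was at 0 in both cKO-labelled libraries.

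All 7 tested choroid plexus markers fell, with sums of 7.51 and 10.1 TPM in cKO-labelled libraries, against 2006 and 2194 TPM in the controls, and Kcnj13 was at 0 in both cKO-labelled libraries. Of these 7, 4 passed the filter only through their control level, as did 2 of the 3 tested surface epithelium markers. Krt8 and Krt18, simple epithelial keratins, fell among surface epithelium markers, whose sum was 1.84 and 2.38 TPM in cKO-labelled libraries, against 19.9 and 18.6 TPM in the controls, with Krt14 at 0 in every library. Endothelial markers summed to 238 and 212 TPM in cKO-labelled libraries, against 334 and 218 TPM in the controls, with 2 of 12 lower (Tek and Emcn), and pericyte markers to 132 and 126 TPM in cKO-labelled libraries, against 224 and 136 TPM in the controls, with 1 of 9 lower (Vtn). Neocortical markers summed to 2345 and 2419 TPM in cKO-labelled libraries, against 2433 and 2486 TPM in the controls, with 1 of 12 lower (Emx2). Of all tested genes 5.24% were called lower, and counts of 1 or 2 in lists of this size are too small to set against that share. Both cKO-labelled libraries lay below both controls for 7 endothelial, 3 pericyte and 4 neocortical markers, against 34.1% of all tested genes. They lay above both for 0, 2 and 4, against 23.5%. The median log2 fold change was -0.54, -0.30 and -0.04 in these 3 lists, against -0.16 over all tested genes. The part of these cell types in the collagen values was not tested.

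Part of the genes that make, bind and degrade collagen were lower as well. Of 63 such genes 53 were tested with limma, and 13 fell and 0 rose, with a median log2 fold change of -0.48, against 5.24% lower, 2.90% higher and a median of -0.16 over all tested genes. Of the 53, 7 passed the filter only through their control level, among them Lox, Itga11 and Ctsk. At an unadjusted p under 0.05, 1 was higher (Mmp9), and limma-voom on the recovered reads called 0 higher. Of these 13, 3 kept the call in every fit with 1 library left out (Lox, Itga11 and Ctsk) and 10 lost it in at least 1 such fit.

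Of 22 genes that fold and modify the chains, 4 fell. Plod2, a lysyl hydroxylase, had 5.37 and 8.08 TPM in cKO-labelled libraries, against 12.8 and 25.0 TPM in the controls (log2 fold change -1.32, limma adjusted p = 0.0141). P3h2, a prolyl hydroxylase that acts on type IV chains, changed by -1.42 (adjusted p = 0.00476), Fkbp14, a chaperone, by -1.33 (adjusted p = 0.0131) and Creb3l1, a transcription factor of the secretory pathway, by -1.05 (adjusted p = 0.0382). Serpinh1, the collagen chaperone HSP47, and P4hb, a subunit of prolyl hydroxylase, were the most abundant. Serpinh1 had 403 and 474 TPM in cKO-labelled libraries, against 917 and 530 TPM in the controls (log2 fold change -0.67, limma adjusted p = 0.25). P4hb had 383 and 335 TPM in cKO-labelled libraries, against 372 and 372 TPM in the controls.

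Of 11 tested genes of processing and cross-linking, 4 fell. Lox, the lysyl oxidase that links fibres, had 0.25 and 0.04 TPM in cKO-labelled libraries, against 11.7 and 9.59 TPM in the controls (log2 fold change -3.35 ± 0.36, limma adjusted p = 3.98e-18). Loxl1, a related oxidase, changed by -2.48 (adjusted p = 1.88e-08), and the enhancers of procollagen cleavage Pcolce and Pcolce2 by -1.85 (adjusted p = 2.48e-05) and -1.01 (adjusted p = 0.0388). Sparc, a secreted collagen-binding protein, and Pxdn, the peroxidase that links type IV, were the most abundant and did not pass. Sparc had 144 and 87.5 TPM in cKO-labelled libraries, against 207 and 164 TPM in the controls. Pxdn had 33.3 and 38.3 TPM in cKO-labelled libraries, against 41.1 and 41.6 TPM in the controls.

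Of 10 tested receptors, 2 fell. Itga11, an integrin chain that binds type I collagen, had 0.50 and 0.51 TPM in cKO-labelled libraries, against 6.06 and 5.28 TPM in the controls (log2 fold change -2.15 ± 0.35, limma adjusted p = 9.04e-08). Ddr2, a receptor kinase for fibrillar collagen, changed by -1.59 (adjusted p = 0.000394). Adgrg1, the receptor of collagen III on neural progenitors, had 369 and 337 TPM in cKO-labelled libraries, against 285 and 169 TPM in the controls. Its groups lay apart, with the cKO-labelled libraries higher, but it did not pass (log2 fold change 0.68 ± 0.35, limma adjusted p = 0.226). Ddr1, the epithelial counterpart of Ddr2, had 280 and 289 TPM in cKO-labelled libraries, against 302 and 186 TPM in the controls.

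Of 10 tested genes of turnover, 3 fell. Ctsk, a protease that cleaves collagen helices, had 0.39 and 0.60 TPM in cKO-labelled libraries, against 11.8 and 12.4 TPM in the controls (log2 fold change -3.13 ± 0.37, limma adjusted p = 5.86e-15). Timp1, an inhibitor of matrix proteases, changed by -1.94 (adjusted p = 3.23e-05) and Mmp2, a gelatinase, by -1.22 (adjusted p = 0.0273). Mmp14, which activates Mmp2, had 55.6 and 76.2 TPM in cKO-labelled libraries, against 86.1 and 61.4 TPM in the controls. Timp2 had 75.8 and 69.6 TPM in cKO-labelled libraries, against 80.8 and 50.0 TPM in the controls, and neither passed.

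**Figure D4:**
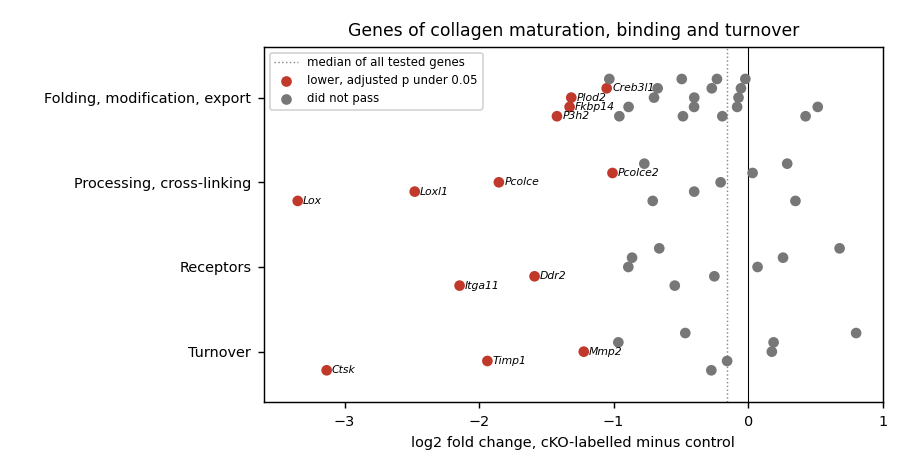
Log2 fold change, cKO-labelled minus control, of the 53 tested genes of collagen maturation, receptors and turnover, 1 point a gene, with names for the 13 that fell and a dotted line at the median of all tested genes. Lox, Ctsk, Loxl1 and Itga11 lie furthest left, from -3.35 to -2.15, and no gene of these lists was called higher.

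The targeted gene was checked in the same table. Upf2 had 27.8 and 42.2 TPM in cKO-labelled libraries, against 23.7 and 41.3 TPM in the controls (log2 fold change 0.13 ± 0.36, limma adjusted p = 0.853). A whole-gene level says little of the deletion, since the floxed exons are a part of the transcript and cells without Cre keep them, and so the groups are named by their labels.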

How the data were processed

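The authors deposited 1 table of TPM values for 40630 genes and 4 libraries, made from total RNA with a stranded kit per the labels' protocols. Reads were aligned with STAR to mm10, per the submitters' processing notes. How genes were counted, with which annotation and strand setting, is not given in the sources used here. TPM multiplied by GENCODE M21 exon length gave whole reads for 100.0% of values above 0 (within 0.05 reads), which gave the depths; 349 genes had no length. Symbols that a spreadsheet had turned into dates (27) were restored from their IDs.

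Genes with a mean of at least 1 TPM (15107) entered a limma fit (limma 3.58.1, R 4.3.3) on log2(TPM + 1), with an intensity trend, two-sided, Benjamini-Hochberg adjusted over all tested genes. The pseudocount of 1 understates changes of low genes. Sequences and figures were made with Python 3.11.15. The 14 alternatives changed the pseudocount, filter, scaling, GC trend, moderation or model, or left out 1 library. Collagen members, classes, lists and tests were chosen with earlier results of these data known. Named were every collagen gene, from each pathway list the called and the 2 most abundant members, markers among the 3 most abundant of a list, and Upf2. Tek, Emcn, Emx2, Krt8, Krt14, Kcnj13 and Mmp9 fall outside this rule and were chosen after their values were seen. The fit was also run on simulated data with a set spread between libraries and no GC trend. That run checks the code and says nothing of how well the fit suits these libraries.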

Additional observations from a re-analysis of the deposited data

How the results depend on the processing

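The collagen calls depended on the filter and on single libraries. No filter left 6 lower and 0 higher collagen genes (limma, with 1 higher at an unadjusted p under 0.05), and leaving out 1 library gave 9 to 17 lower and 0 to 1 higher. All genes changed numbered 178 with no filter, 642 at a mean of at least 5 TPM and 176 to 7379 with 1 library left out, against 1229. Of these 1229 calls 35.6% were higher, against 56.25% after median-of-ratios scaling and 57.2% after quantile normalization, while the collagen calls stayed at 14 lower and 1 higher under both. Lower pathway genes numbered 3 with no filter, 8 at a mean of at least 5 TPM and 4 to 19 with 1 library left out, against 13; higher ones numbered 1 after either scaling and 0 to 7 with 1 library left out. The median log2 fold change of all tested collagens was -0.61 with no filter and -1.37 to -0.93 with 1 library left out. For fibrillar genes it was -0.82 with no filter and -1.70 to -0.93 with 1 left out. For basement membrane genes it was -0.74 after median-of-ratios scaling, -1.19 after GC removal and -1.27 to -0.56 with 1 left out. For the other classes it was -2.67 at a pseudocount of 0.1, -0.29 with no filter, -2.71 with limma-voom and -2.45 to -1.49 with 1 left out. The cause was not tested. Directions that turned belonged to genes that did not pass. Col11a2 stood at -0.45 after GC removal and -0.10 to 0.17 with 1 library left out. Col12a1 stood at 0.13 after quantile normalization, 0.065 after GC removal and -0.41 to 0.038 with 1 left out. With 1 left out, Col9a3 ranged from -0.61 to 0.039, P4hb from -0.15 to 0.043, Ddr1 from -0.089 to 0.61, Timp2 from -0.15 to 0.53, Mmp14 from -0.40 to 0.083 and Upf2 from -0.26 to 0.52. After median-of-ratios scaling P4hb stood at 0.15 and Mmp14 at 0.043, and after GC removal Ddr1 stood at -0.10. No paired analysis was possible because the groups share no replicate numbers.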
